A study of Mus musculus with 9 samples.

Results

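The 47 genes described here encode collagens, laminins and other proteins of the extracellular matrix, together with a few enzymes that cross-link it. They were taken as a fixed list of gene symbols, and each symbol was matched to its Ensembl identifier among the 54838 gene identifiers of the count table. All 47 matched exactly 1 identifier. By role they are 5 fibrillar collagens, 3 chains of collagen VI, 15 genes of the basement membrane and 24 other matrix proteins. RNA-seq was collected from 9 libraries of PDA530 Met, a mouse pancreatic ductal adenocarcinoma (PDAC) line that was grown out of a liver metastasis that arose in a male KPC animal, a genetic mouse model of this cancer, on a mixed 129/SvJae/C57Bl/6 background. The study asked which transcripts differ when Zdhhc20, which encodes an enzyme that attaches palmitate to proteins, is disrupted. The knockout group (clone E4) was 1 single-cell clone edited in Zdhhc20 with CRISPR/Cas9. The control group (clone C5) was 1 single-cell clone that had been nucleofected with the same guide RNAs but had not been edited, and it expresses Zdhhc20. The parental group was the line before cloning, which one label calls PDA50 Met. Each group had 3 libraries. All cells were untreated and grown in DMEM with fetal bovine serum, and the labels give no culture on a matrix. The knockout and control libraries are replicates of 1 clone each and not of independent clones, so a p-value measures the spread between samples of a clone, and the effect of the edit and the particular clone cannot be told apart.

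The extracellular matrix has a fibrous part, laid down mainly by fibroblasts, and a thin sheet, the basement membrane, on which epithelial cells rest. In the sheet, laminin trimers of an alpha, a beta and a gamma chain and a network of type IV collagen are tied together by nidogen and perlecan. Pancreatic ductal adenocarcinoma is known for a dense fibrous stroma, most of whose fibrillar collagen comes from fibroblasts and stellate cells, while the carcinoma cells themselves make basement membrane proteins, fibronectin and matricellular proteins. The samples here were cultures of a carcinoma cell line.

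Library totals ranged from 16525869 to 23192701 counts. Levels are given as CPM, counts scaled to library size, after TMM scaling, which sets the bulk of genes level between libraries. Zdhhc20 itself measured 33.9 to 42.5 CPM in the knockout, 85.8 to 123 CPM in the control and 75.3 to 90.7 CPM in the parental libraries, in the order of the labels. The control libraries varied most. Among the 26 matrix genes with enough counts to test, the median ratio of the highest to the lowest library of a group was 1.47 for control, 1.14 for knockout and 1.16 for parental libraries. Of the 6 matrix genes whose control libraries differed at least 2-fold, Thbs1 differed most, 9.73-fold. Replicates 1, 2 and 3 were each the farthest from the other control libraries for 8, 10 and 8 of the 26 genes. Control replicate 2 was the control library nearest to the knockout mean for 13 of the 26 genes.

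Of the 47 genes, 26 passed the filter on low counts, and all 26 exceeded its cutoff of 0.565 CPM in every library. The other 21 were near or at 0 in these cells, and the largest value of any of them in a library was 1.3 CPM. Col1a2, Col3a1, Lama1, Postn, Dcn and Lox had no count in any library. A count of 0 in all 9 libraries allows a level of up to 0.0177 CPM, for counting error only. A single count in all was assigned to each of Nid2, Tgfbi and Col5a2, 2 counts to each of Fbn1 and Lama4, 5 to Thbs2 and 7 to Col17a1. Loxl1 had 16 counts, Lama3 and Tnc 20 each, Col12a1 23, Bgn 40 and Col16a1 63. The most abundant of the untested genes were Col6a3, with 74 counts, and Col1a1, with 77. Decorin, biglycan, periostin and both chains of type I collagen, typical products of fibroblasts, were therefore all below the filter on low counts. Other genes that fibroblasts also make, among them Col6a1, Col6a2, Sparc and Col5a1, passed it.

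Levels of different genes were compared per kilobase of merged exons, and the order below the first 3 genes depended on that length. Spp1, which encodes osteopontin, a secreted phosphoprotein that binds integrins and CD44, had the highest level in every group. Its mean was 427 ± 97.0 CPM per kb in knockout, 652 ± 442 in control and 689 ± 20.5 in parental cells (SD, n = 3). Behind it came Fbln2 and Col4a1. Fbln2, the gene of fibulin-2, was at 144, 119 and 138 CPM per kb in the knockout, control and parental groups, and Col4a1 was at 119.9, 148 and 112 CPM per kb. Fn1, encoding fibronectin, was lower than these at 69.0, 12.7 and 38.0 CPM per kb in the knockout, control and parental groups. Efemp1, encoding fibulin-3, was at 59.1 CPM per kb in the parental cells, close to Nid1 at 53.0 and Col4a2 at 51.9 CPM per kb. Per length of the longest transcript, Nid1 at 60.4 came before Efemp1 at 59.1 there, and in the knockout clone Fn1 at 96.9 came before Col4a2 at 73.5 CPM per kb. The 47 genes together took 0.533% to 0.682% of the counts of a library. Their summed level was 5594 to 6019 CPM in the knockout, 5391 to 6958 CPM in the control and 5680 to 6037 CPM in the parental libraries, and these ranges overlap. Per kilobase, CPM sums were 999 to 1189 in the knockout, 1130 to 1888 in the control and 1362 to 1400 in the parental libraries. By that measure every knockout library was below every parental one, and the control range overlapped both. The groups differed in which matrix genes made up the total.

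**Figure D1:**
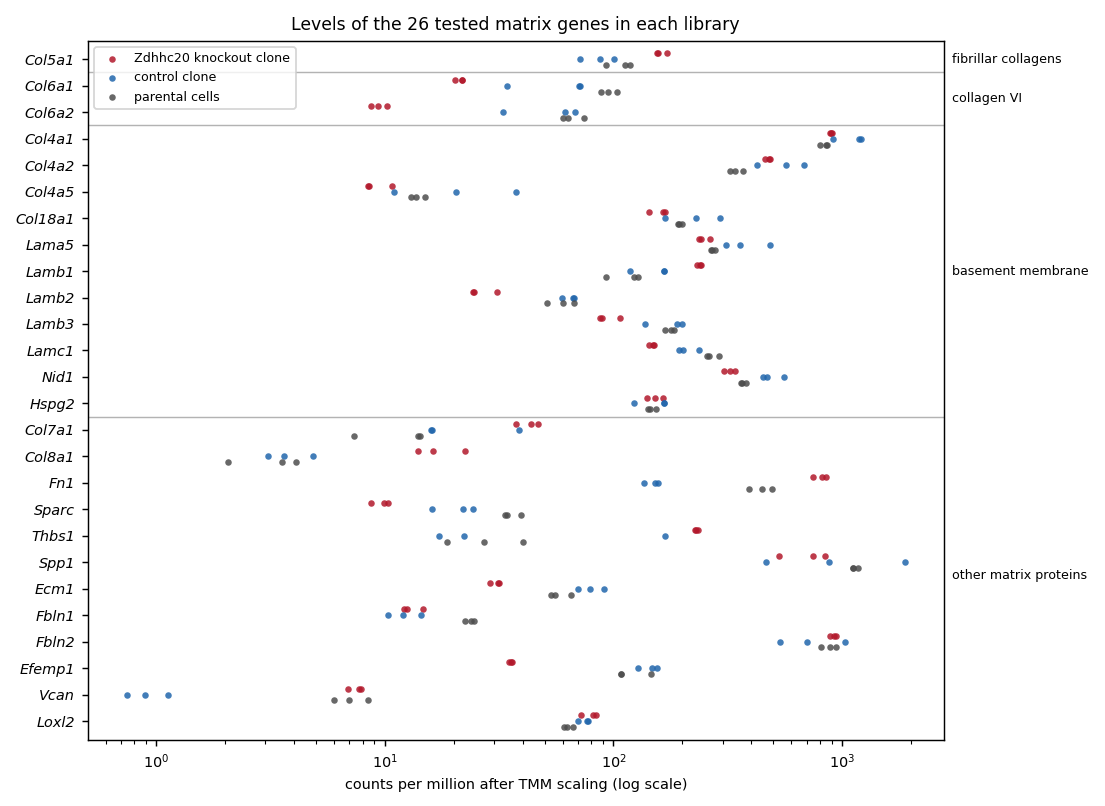
Level of each of the 26 tested matrix genes in each of the 9 libraries, in CPM after TMM scaling on a log axis, with 1 point per library and the genes grouped by role. Knockout points lie to the left of all others for Col6a1, Col6a2, Col4a5, Lama5, Lamb2, Lamb3, Lamc1, Nid1, Sparc, Ecm1 and Efemp1, narrowly so for Col4a5 and Lama5, and to the right for Col5a1, Lamb1, Col8a1, Fn1 and Thbs1, while control points stand apart to the left for Fn1 and Vcan.

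Differences were tested with edgeR's quasi-likelihood method in 1 fit of all 9 libraries, and calls were made under 0.05 after Benjamini-Hochberg adjustment over the 13153 genes tested. Against the control clone, 18 of the 26 matrix genes were called in the knockout clone, where 42.9% of all tested genes were. Of these, 5 were higher, where 18.7% of all genes were, and 13 were lower, where 24.2% of all genes were. Without control replicate 2 the split was 9 higher and 13 lower, beside 3391 and 3813 of all genes. With no filter on low counts it was 9 and 14, beside 2433 and 3271 of all genes. Against the parental cells 17 were called, where 31.4% of all genes were. They split into 8 higher and 9 lower, beside 13.1% and 18.3% of all genes. The control clone differed from the parental cells in 10, beside 21.4% of all genes, with 5 higher and 5 lower beside 10.4% and 11.0%. That split became 7 and 10 without control replicate 2, beside 1922 and 2008 of all genes. Without parental replicate 2 it became 2 and 4, beside 667 and 870 of all genes. With a log2 fold change of at least 1 in size as well, the counts were 10, 9 and 2 matrix genes, where 14.0%, 10.6% and 6.47% of all genes passed. The median log2 fold change of the 26 genes was -0.41, -0.16 and 0.17 in the same order, and that of all tested genes was -0.02, -0.01 and 0.01. The 3 comparisons share libraries and are not independent of each other.

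Genes called in 1 direction against both other groups set a group apart. In the knockout clone 12 matrix genes were apart, where 21.5% of all tested genes were. Col5a1, Lamb1, Col8a1 and Fn1 were higher, where 8.19% of all genes were, and Col6a1, Col6a2, Lamb2, Lamb3, Lamc1, Sparc, Ecm1 and Efemp1 were lower, where 13.4% were. These 12 kept both calls under every alternative tried without an added fold threshold, with a highest adjusted p of 0.0359. In the control clone 6 were apart, where 13.4% of all genes were. Col4a1, Lama5, Nid1 and Ecm1 were highest there (7.01% of all genes) and Fn1 and Vcan lowest (6.41%). In the parental cells 4 were apart, where 5.85% of all genes were. Lamc1, Sparc and Fbln1 were highest there (3.7% of all genes) and Col4a2 lowest (2.14%). The libraries of both groups did not overlap for 18 matrix genes between knockout and control, 23 between knockout and parental and 13 between control and parental, beside 51.6%, 61.5% and 37.3% of all tested genes. In bulk RNA, fewer cells that express a gene and less of its RNA per cell cannot be told apart.

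**Figure D2:**
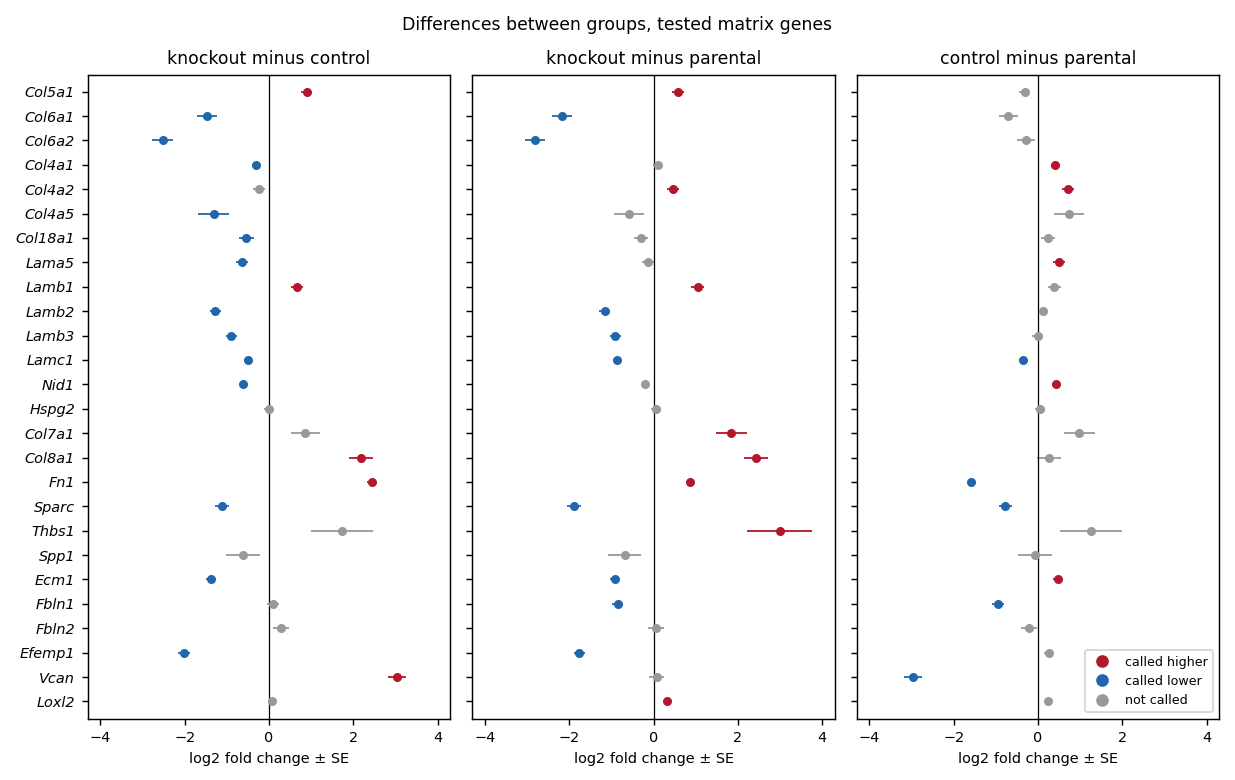
Log2 fold change of the 26 tested matrix genes with its standard error (bars), for the knockout minus the control clone, the knockout clone minus the parental cells and the control clone minus the parental cells. Points are coloured by call at an adjusted p under 0.05, and the points of collagen VI, Lamb2, Efemp1 and Sparc lie left of 0 and those of Col8a1 and Fn1 right of 0 in both knockout panels.

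Among the fibrillar collagens, whose triple helices form the cable-like fibrils of the stroma, Col5a1 was the only one at a testable level, and it was higher in the knockout clone than in both other groups. Type V collagen is a minor fibrillar collagen that sits inside type I fibrils and limits their diameter. Col5a1 (ENSMUSG00000026837, chr2:27886425-28039514 in GRCm38) measured 156, 172 and 155 CPM in knockout libraries 1, 2 and 3, the order used for every gene below. Control libraries held 71.7, 100.2 and 87.4 CPM, and parental libraries 118, 112 and 92.5 CPM. All knockout libraries lay above all others, and control and parental libraries overlapped. Knockout minus control was 0.90 (SE 0.13, adjusted p 0.000648) on the log2 scale, and knockout minus parental was 0.58 (SE 0.13, adjusted p 0.0093). Control and parental cells differed by -0.32 (SE 0.13, adjusted p 0.117), which was called only without control replicate 2 (-0.44, adjusted p 0.0232). The partner chain Col5a2 had 1 count in all 9 libraries. Col1a1, the alpha 1 chain of type I collagen, had 36 counts over the knockout, 15 over the control and 26 over the parental libraries, and Col1a2 and Col3a1 had none.

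The 250 bases before the start of Col5a1 are shown because it was the only fibrillar chain at a testable level in these cells. The stretch is chr2:27886175-27886424 on the plus strand of GRCm38.p6, from RefSeq, 5′ to 3′, with GC boxes in capitals.
Col5a1: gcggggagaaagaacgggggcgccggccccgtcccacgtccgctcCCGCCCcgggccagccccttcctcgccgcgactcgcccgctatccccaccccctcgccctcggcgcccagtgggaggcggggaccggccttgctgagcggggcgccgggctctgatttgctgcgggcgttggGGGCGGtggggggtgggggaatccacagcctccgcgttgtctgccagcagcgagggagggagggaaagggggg
In this and the stretches below, 5 motifs were searched on both strands with overlaps allowed: the CCAAT box (CCAAT), the GC box (GGGCGG, whose other strand reads CCGCCC), the TATA box (TATAAA), the AP-1 site (TGANTCA) and the E-box CACCTG. In Col5a1, GC boxes began 73 and 205 bases before the start. Of all 32851 RefSeq promoter windows of 300 bases, 35.7% held a GC box, 37.4% a CCAAT box, 13.6% a TATA box, 7.81% an AP-1 site and 20.2% the E-box. Promoter windows were on hand for 33 of the 47 genes. The 27 windows of the tested matrix genes held a GC box in 18 (66.7%), a CCAAT box in 9 (33.3%), a TATA box in 2 (7.41%), an AP-1 site in 3 (11.1%) and the E-box in 5 (18.5%). A match describes letters in a window, and binding was not measured.

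Collagen VI forms beaded microfilaments next to cells and basement membranes, from trimers of 3 different chains. Both testable chains, Col6a1 and Col6a2, fell in knockout cells relative to both other groups. Col6a1 (ENSMUSG00000001119, chr10:76708792-76726168) was at 21.8, 20.3 and 21.7 CPM in the knockout, 70.5, 34.2 and 71.0 CPM in the control and 88.1, 94.3 and 104 CPM in the parental libraries. The 3 groups did not overlap, and control replicate 2 was the control library closest to the knockout clone. The means were 21.3 ± 0.866, 58.6 ± 21.1 and 95.5 ± 8.02 CPM (SD, n = 3). In log2 units, the knockout libraries differed from control by -1.46 (SE 0.24, adjusted p 0.00108) and from parental by -2.17 (SE 0.24, adjusted p 0.000225).

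Col6a2 (ENSMUSG00000020241, chr10:76595762-76623630) is a neighbour of Col6a1 on chromosome 10 and has the same strand. Its levels were 8.69, 10.2 and 9.34 CPM in the knockout, 61.2, 33.0 and 67.8 CPM in the control and 60.4, 63.2 and 74.5 CPM in the parental libraries. Again every knockout library was below every other, control replicate 2 was the lowest control library, and control and parental libraries overlapped. The mean of 9.41 ± 0.747 CPM in the knockout clone was 0.174 of the control mean of 54.0 ± 18.5 CPM and 0.142 of the parental mean of 66.0 ± 7.47 CPM (SD, n = 3). Its log2 difference was -2.52 (SE 0.24, adjusted p 6.68e-05) from control and -2.81 (SE 0.25, adjusted p 6.77e-05) from parental, the most negative of the 26 genes in both comparisons. The chains did not fall in the same proportion. Per exon length, Col6a1 was 4.76, 3.78 and 4.42 times as abundant as Col6a2 in the knockout libraries, 2.19, 1.97 and 1.99 times in the control libraries and 2.77, 2.83 and 2.65 times in the parental libraries. All knockout ratios were above all others, also per length of the longest transcript, where the size was smaller (2.38 to 3.00 in the knockout, 1.24 to 1.38 in the control and 1.67 to 1.79 in the parental libraries). These ratios were not tested.

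Comparing control with parental cells, Col6a1 differed by -0.70 (SE 0.23, adjusted p 0.0553) and Col6a2 by -0.29 (SE 0.22, adjusted p 0.39), and neither was called. For Col6a1 that call turned with the setting. The call was made without control replicate 2 (-0.43, adjusted p 0.005), without control replicate 3 (-0.86, adjusted p 0.0248), when libraries were scaled by total counts (-0.75, adjusted p 0.045), without the filter on low counts (-0.71, adjusted p 0.00852) and with the DESeq2 test (-0.71, adjusted p 0.0186). The third chain, Col6a3, had only 74 counts, of which 35 were in the knockout, 11 in the control and 28 in the parental libraries. Without the filter it was called higher in knockout than in control cells (1.69, adjusted p 0.041), the opposite direction from Col6a1 and Col6a2, and likewise in 7 of the 9 fits that left out 1 library (1.42 to 2.09, adjusted p 0.00958 to 0.0446). Summed over the 3 chains, collagen VI was at 30.9 to 31.6 CPM in the knockout, 67.5 to 139 CPM in the control and 149 to 179 CPM in the parental libraries. Collagen VI is also a product of fibroblasts, so fibroblast markers are set beside it. The 9 markers of fibroblasts and stellate cells summed to 0.612 to 1.17 CPM in the knockout, 3.93 to 9.66 CPM in the control and 3.12 to 4.0 CPM in the parental libraries. Only 2 of the 9, Pdgfra and Des, were at a testable level, and Thy1, Dpt and Lum were at 0 in all libraries. Both were called lower in the knockout than in the control clone (24.2% of all tested genes), and 1 of them than in the parental cells (18.3%). The 9 markers together were little above the filter's cutoff of 0.565 CPM in knockout libraries, so these calls carry little weight. Control replicate 2 was the lowest control library for the summed markers (3.93 CPM) and for summed collagen VI (67.5 CPM). The part of these markers in the result was not tested.

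The stretches before Col6a1 and Col6a2 are shown because these 2 testable chains were both lower in the knockout clone. For Col6a2 it is chr10:76623631-76623880 and for Col6a1 chr10:76726169-76726294, the part of the RefSeq window that lies outside annotated exons. Of 2 windows for Col6a2, the more upstream is shown. Both are on the minus strand of GRCm38.p6, from RefSeq, 5′ to 3′, with GC boxes in capitals.
Col6a1: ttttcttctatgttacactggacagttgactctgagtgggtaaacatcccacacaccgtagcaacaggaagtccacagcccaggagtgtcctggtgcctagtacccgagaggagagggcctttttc
Col6a2: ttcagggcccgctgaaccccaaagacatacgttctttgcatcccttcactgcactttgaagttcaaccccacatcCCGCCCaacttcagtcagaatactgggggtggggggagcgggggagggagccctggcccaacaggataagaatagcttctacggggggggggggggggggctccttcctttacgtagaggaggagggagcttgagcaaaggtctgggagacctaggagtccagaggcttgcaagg
Col6a2 held 1 GC box, which began 175 bases before the start. None of the 5 motifs occurred in the 126 bases shown for Col6a1, and an AP-1 site lay in the exon part of its window that is not shown. The other Col6a2 window held 3 GC boxes.

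Of the 15 basement membrane genes, 11 were tested. Against the control clone the knockout clone had 1 higher and 8 lower (18.7% and 24.2% of all tested genes), with a median log2 fold change of -0.53. Against the parental cells it had 2 higher and 3 lower (13.1% and 18.3% of all genes), with a median of -0.19. The control clone had 4 higher and 1 lower than the parental cells (10.4% and 11.0% of all genes), with a median of 0.39. Summed over the 15 genes, the level was 2699 to 2818 CPM in the knockout and 2723 to 2868 CPM in the parental libraries, which overlap, and 3073 to 3809 CPM in the control libraries. Col4a1, Col18a1, Lama5, Nid1 and Col4a5 were called lower in knockout cells when set against control cells, and their differences between knockout and parental cells were not called in the fit of all 9 libraries. Col4a1, Lama5 and Nid1 were called higher in control than in parental cells. These calls depended on which libraries shared the estimate of the spread. With only the 2 groups compared in the fit, Col4a5 (-0.58, adjusted p 0.00196), Col18a1 (-0.30, adjusted p 0.00359) and Nid1 (-0.19, adjusted p 0.0135) were called lower in knockout than in parental cells. In that setting Col4a1 (adjusted p 0.0998) and Col18a1 (adjusted p 0.0773) lost the call against the control clone, and Col4a1 (adjusted p 0.0687), Lama5 (adjusted p 0.0798) and Lamc1 (adjusted p 0.0731) lost that between control and parental cells.

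Type IV collagen makes the network of the basement membrane, and its common trimer combines the products of Col4a1 and Col4a2. These genes lie head to head on chromosome 8, Col4a1 (ENSMUSG00000031502) at chr8:11198423-11312826 and Col4a2 (ENSMUSG00000031503) at chr8:11312805-11449287, and their first exons overlap on opposite strands. The strand setting of the counting is not given in the sources used here, so reads from the overlap could be split between them. Col4a1 was at 891, 906 and 889 CPM in the knockout, 917, 1191 and 1213 CPM in the control and 855, 852 and 797 CPM in the parental libraries. The control libraries were the highest, with replicate 1 close to the knockout libraries. Knockout minus control was -0.31 (SE 0.10, adjusted p 0.0371) on the log2 scale, knockout minus parental 0.10 (SE 0.10, adjusted p 0.494) and control minus parental 0.41 (SE 0.10, adjusted p 0.022). The first of these was a marginal call. It was lost without either control replicate 2 or 3, without any knockout library, without any parental library and with scaling by total counts (adjusted p 0.0534 to 0.101), and the third was lost without any parental library (adjusted p 0.0621 to 0.0803).

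Col4a2 was at 477, 483 and 461 CPM in the knockout, 426, 681 and 568 CPM in the control and 367, 340.3 and 322 CPM in the parental libraries. Knockout libraries fell within the spread of the control libraries, and all parental libraries were lower. For knockout against control, knockout against parental and control against parental, log2 changes were -0.24 (SE 0.14, adjusted p 0.211), 0.47 (SE 0.14, adjusted p 0.0347) and 0.70 (SE 0.14, adjusted p 0.00888). The call against the parental cells was lost without any knockout or any parental library (adjusted p 0.0504 to 0.109), and without control replicate 1 the difference from the control clone was called (-0.40, adjusted p 0.0147). Per exon length, the ratio of Col4a1 to Col4a2 was 1.65, 1.66 and 1.71 in the knockout, 1.91, 1.55 and 1.90 in the control and 2.07, 2.22 and 2.19 in the parental libraries. The parental ratios were above those of both clones. These ratios were not tested.

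Col4a5 (ENSMUSG00000031274, chrX:141475385-141689234), a chain of a second type IV network, was far lower in level. Its levels were 10.7, 8.46 and 8.53 CPM in the knockout, 20.4, 10.9 and 37.6 CPM in the control and 13.1, 13.6 and 15 CPM in the parental libraries. The control libraries spread over the widest range, and replicate 2 was close to the knockout libraries. The log2 difference was -1.32 (SE 0.36, adjusted p 0.0151) relative to control and -0.59 (SE 0.36, adjusted p 0.244) relative to parental cells. The call was lost without knockout replicate 2 (-1.25, adjusted p 0.0569) or 3 (-1.26, adjusted p 0.0552), and without control replicate 3 the fold change shrank to -0.77 (adjusted p 0.023). Col18a1, which encodes the collagen from which endostatin is cut, was at 165, 142 and 169 CPM in the knockout, 229.9, 168 and 291 CPM in the control and 192, 194 and 199 CPM in the parental libraries. Control replicate 2 was among the knockout values and the other control libraries were above them. Set against control libraries the log2 change came to -0.53 (SE 0.17, adjusted p 0.0272), and set against parental libraries to -0.30 (SE 0.17, adjusted p 0.2). The first call was lost on leaving out control replicate 1 or 3, any knockout library or parental replicate 2 (adjusted p 0.0501 to 0.109), with the change shrinking to -0.33 without control replicate 3, and without control replicate 2 the second was called (-0.30, adjusted p 0.0331).

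The laminin genes split within the beta chains. Lamb1 rose in knockout cells relative to both other groups, while Lamb2, Lamb3 and the gamma chain Lamc1 fell against both. The beta 1 and gamma 1 chains belong to the widespread laminins of most basement membranes, the beta 2 chain can take the place of beta 1, and the beta 3 chain belongs to the laminin that anchors hemidesmosomes. Lamb1 (ENSMUSG00000002900, chr12:31265234-31329644) was at 243, 238 and 232 CPM in the knockout, 118, 166 and 167 CPM in the control and 129, 123 and 92.6 CPM in the parental libraries. Knockout libraries were above all others and tightly grouped, and control and parental libraries overlapped. The means were 238 ± 5.07, 150.1 ± 27.9 and 115 ± 19.4 CPM (SD, n = 3). Relative to the control clone its log2 change was 0.66 (SE 0.15, adjusted p 0.0069), and relative to the uncloned line 1.05 (SE 0.15, adjusted p 0.000997). The median log2 fold change of the tested genes of chromosome 12 was -0.25 against the control clone and 0.02 against the parental cells.

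Lamb2 (ENSMUSG00000052911, chr9:108479736-108490530) was at 24.7, 31.0 and 24.2 CPM in the knockout, 66.9, 66.5 and 59.4 CPM in the control and 60.2, 51.3 and 67.0 CPM in the parental libraries. Knockout libraries were below all others, and the other groups overlapped. Knockout minus control was -1.27 (SE 0.13, adjusted p 8.14e-05) on the log2 scale, and knockout minus parental was -1.16 (SE 0.13, adjusted p 0.000216). Lamb2 lies on chromosome 9, where the median over tested genes was -0.53 on the log2 scale in both comparisons, and the part of this chromosome-wide difference in the result was not tested. Lamb3 (ENSMUSG00000026639, chr1:193207699-193343878) was at 89.5, 107 and 87.6 CPM in the knockout, 189.8, 198 and 138 CPM in the control and 184, 179 and 168 CPM in the parental libraries. The knockout libraries were again below all others. It differed from control by -0.89 (SE 0.14, adjusted p 0.000821) and from parental by -0.90 (SE 0.14, adjusted p 0.00119) in log2 units, and control minus parental was -0.01 (SE 0.14, adjusted p 0.962).

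Lamc1 (ENSMUSG00000026478, chr1:153218922-153332786), the gamma 1 chain, was at 149, 151 and 143 CPM in the knockout, 201, 193 and 236 CPM in the control and 256, 262 and 289.8 CPM in the parental libraries. The groups did not overlap and were ordered knockout, control, parental from low to high. In log2 units, the knockout libraries differed from control by -0.51 (SE 0.09, adjusted p 0.00181) and from parental by -0.87 (SE 0.09, adjusted p 0.000175). The step from parental to control was -0.36 (SE 0.09, adjusted p 0.0224), a call that was lost without control replicate 1 or parental replicate 2 or 3 (adjusted p 0.0547 to 0.0775). Lama5, the alpha 5 chain of the main epithelial laminins (ENSMUSG00000015647, chr2:180176373-180225859), was at 265, 236 and 242 CPM in the knockout, 312, 359 and 483 CPM in the control and 279, 269.6 and 267 CPM in the parental libraries. The control libraries were above all others, and knockout and parental libraries lay close together. The 3 log2 differences, in the order knockout minus control, knockout minus parental and control minus parental, were -0.64 (SE 0.14, adjusted p 0.00545), -0.13 (SE 0.14, adjusted p 0.497) and 0.50 (SE 0.14, adjusted p 0.0318). That last call was lost without any knockout or any parental library (adjusted p 0.0526 to 0.105).

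Among the alpha chains, Lama3, the partner of Lamb3, had 7 counts over the knockout libraries, 0 over the control and 13 over the parental libraries. Lama4 had 2 counts in all and Lama1 none. Lama5 was therefore the only alpha chain on the list at a testable level.

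Ratios within a library show the change in balance among beta chains without the scaling between libraries. Per exon length, Lamb1 was 1.81, 1.49 and 1.77 times as abundant as Lamb3 in the knockout libraries, where it was 0.414, 0.557 and 0.805 times as abundant in the control and 0.466, 0.459 and 0.368 times in the parental libraries. Lamb1 thus exceeded Lamb3 in every knockout library and in no other by this length, while per length of the longest transcript the ratio was 1.88 to 2.28 in the knockout and also exceeded 1 in control replicate 3 (1.02). The ratio of Lamb1 to Lamb2 was 6.03, 4.72 and 5.88 in the knockout, 1.08, 1.53 and 1.72 in the control and 1.31, 1.47 and 0.848 in the parental libraries, and by the longest transcript it was 7.49 to 9.57, 1.72 to 2.73 and 1.34 to 2.34. For both ratios, the knockout libraries did not overlap with the others, and control and parental libraries did. Both ratios use genes whose calls are given above and were not tested again.

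**Figure D3:**
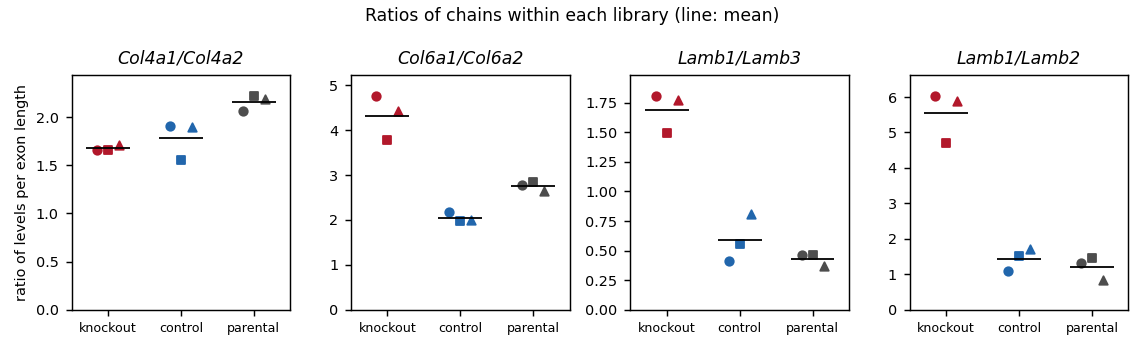
Ratio of 2 chains within each library, from CPM divided by exon length, on linear axes that start at 0, with 1 point per library and a line at the group mean. The knockout libraries lie highest for Lamb1/Lamb3 (1.49 to 1.81), Lamb1/Lamb2 (4.72 to 6.03) and Col6a1/Col6a2 (3.78 to 4.76), and the parental libraries lie highest for Col4a1/Col4a2 (2.07 to 2.22).

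The stretches before Lamb1 and Lamb3 are shown because these beta chains moved in opposite directions. They are chr12:31265043-31265233 for Lamb1 and chr1:193301744-193301992 for Lamb3, on the plus strand of GRCm38.p6, from RefSeq, 5′ to 3′, trimmed to bases outside annotated exons, at the more upstream of 2 starts for Lamb3. Capitals mark the CCAAT box and the GC boxes.
Lamb1: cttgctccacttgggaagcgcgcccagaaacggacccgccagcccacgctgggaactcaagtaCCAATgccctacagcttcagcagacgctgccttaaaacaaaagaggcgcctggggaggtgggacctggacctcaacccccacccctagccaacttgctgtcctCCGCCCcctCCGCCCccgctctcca
Lamb3: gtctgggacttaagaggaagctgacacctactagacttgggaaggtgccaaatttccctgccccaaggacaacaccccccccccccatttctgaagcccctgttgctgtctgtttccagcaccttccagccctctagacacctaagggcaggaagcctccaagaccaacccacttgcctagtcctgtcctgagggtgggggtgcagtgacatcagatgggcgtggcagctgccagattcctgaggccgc
Lamb1 held a CCAAT box that began 187 bases before the start and GC boxes that began 75 and 84 bases before it. None of the 5 motifs occurred in the 249 bases shown for Lamb3, while its other window held the E-box.

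**Figure D4:**
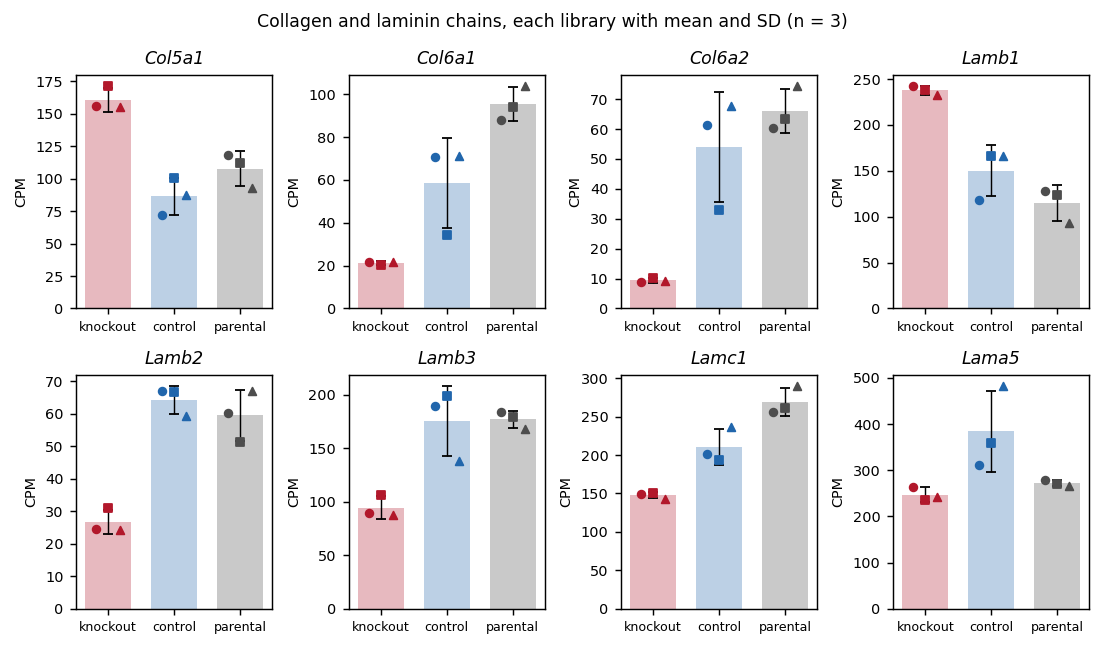
Level of 8 collagen and laminin chains in CPM on linear axes that start at 0, with 1 point per library, bars at the mean and error bars of 1 SD (n = 3). The knockout clone is lowest for Col6a1, Col6a2, Lamb2, Lamb3 and Lamc1 and highest for Col5a1 and Lamb1, and the control clone is highest for Lama5.

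Of the proteins that tie laminin to type IV collagen, nidogen-1 and perlecan were tested and differed in behaviour. Nid1 (ENSMUSG00000005397) was at 339, 324 and 303 CPM in the knockout, 469, 556 and 451 CPM in the control and 379, 364 and 361 CPM in the parental libraries. The groups did not overlap, and the control libraries were the highest. For knockout against control, knockout against parental and control against parental, log2 changes were -0.61 (SE 0.09, adjusted p 0.000627), -0.19 (SE 0.09, adjusted p 0.131) and 0.42 (SE 0.09, adjusted p 0.0107). Without control replicate 2 the difference from the parental cells was called (-0.19, adjusted p 0.0362). Nid1 lies on chromosome 13, where the median of tested genes was 0.33 for knockout against control and -0.20 for control against parental. Both medians had the opposite sign from Nid1. Hspg2, the core protein of perlecan, was at 165, 152 and 139.9 CPM in the knockout, 124, 167 and 166 CPM in the control and 154, 141 and 145 CPM in the parental libraries, and all groups overlapped. Its log2 fold changes were 0.00, 0.06 and 0.05 (each SE 0.12, adjusted p 0.992, 0.758 and 0.784), and their sign turned when single libraries were left out. Nid2 had 1 count.

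Of the 24 other matrix proteins, 12 were tested. The knockout clone had 3 higher and 3 lower than the control clone, 6 called where 42.9% of all tested genes were. It had 5 higher and 4 lower than the parental cells, 9 called beside 31.4% of all genes, and the control clone had 1 higher and 4 lower than the parental cells, 5 called beside 21.4%. Col8a1, a short-chain network collagen known from vessel walls and the cornea, rose in the knockout clone from a low level. Col8a1 (ENSMUSG00000068196, chr16:57624258-57754737) was at 16.3, 14 and 22.5 CPM in the knockout, 4.84, 3.63 and 3.10 CPM in the control and 4.09, 3.54 and 2.06 CPM in the parental libraries. Knockout libraries were well above all others, which overlapped each other. The knockout mean of 17.6 ± 4.38 CPM (SD, n = 3) was 4.56 times the control mean and 5.45 times the parental mean. The log2 difference was 2.18 (SE 0.27, adjusted p 0.000274) relative to control and 2.43 (SE 0.28, adjusted p 0.000283) relative to parental cells. The tested genes of chromosome 16, where Col8a1 lies, had medians of -0.35 and -0.29 in these comparisons, of opposite sign.

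The 250 bases before the start of Col8a1 are shown as those of the listed collagen with the largest rise in both knockout comparisons. They are chr16:57754738-57754987 on the minus strand of GRCm38.p6, from RefSeq, 5′ to 3′, with GC boxes and the E-box in capitals.
Col8a1: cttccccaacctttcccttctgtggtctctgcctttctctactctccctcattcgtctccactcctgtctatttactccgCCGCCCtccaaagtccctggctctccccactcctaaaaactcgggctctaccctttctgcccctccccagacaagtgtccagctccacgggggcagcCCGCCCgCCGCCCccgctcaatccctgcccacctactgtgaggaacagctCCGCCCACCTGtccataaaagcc
GC boxes began 23, 66, 73 and 170 bases before the start. The E-box began 18 bases before it and shares a base with the nearest GC box.

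Col7a1 (ENSMUSG00000025650, chr9:108953586-108984875) encodes the anchoring fibril collagen that fastens the basement membrane to the tissue beneath. Its levels were 46.7, 43.6 and 37.6 CPM in the knockout, 15.9, 38.7 and 16.1 CPM in the control and 14.3, 14 and 7.30 CPM in the parental libraries. Control replicate 2 lay among the knockout libraries and the other control libraries near the parental ones. Relative to parental cells the log2 change was 1.84 (SE 0.36, adjusted p 0.0047). Relative to control it was 0.86 (SE 0.35, adjusted p 0.0723), which was not called, but became a call on leaving out control replicate 2 (1.42, adjusted p 0.000667), with no filter on low counts (0.87, adjusted p 0.0143) and with the DESeq2 test (0.87, adjusted p 0.0336). Between control and parental cells the log2 change was 0.98 (adjusted p 0.0848), which was not called. It became a call with no filter (0.98, adjusted p 0.0168), with the DESeq2 test (0.98, adjusted p 0.0287) and without control replicate 3 (1.18, adjusted p 0.0357). Like Lamb2, Col7a1 lies on chromosome 9, but its differences in the knockout clone had the opposite sign from that chromosome's median. Col12a1, Col16a1 and Col17a1 were too low to test.

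Fibronectin, which cells assemble into fibrils through integrins, stood at a separate level in each of the 3 groups. Fn1 (ENSMUSG00000026193, chr1:71585520-71653200) was at 849, 749 and 821 CPM in the knockout, 152, 157 and 136 CPM in the control and 494, 449 and 391 CPM in the parental libraries. The groups did not overlap, with the parental cells between the clones. The means were 806 ± 51.6, 148 ± 10.7 and 444 ± 51.7 CPM (SD, n = 3), so the knockout mean was 5.43 times the control mean and 1.81 times the parental mean. Set against control libraries the log2 change came to 2.44 (SE 0.11, adjusted p 9.38e-07), and set against parental libraries to 0.86 (SE 0.10, adjusted p 0.000305). The control clone was in turn lower than the parental cells, at a log2 change of -1.58 (SE 0.10, adjusted p 2.88e-05). The difference between the unedited clone and the uncloned line was thus larger in size than that between the knockout clone and the uncloned line, a comparison that shares the parental libraries and was not tested.

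Vcan, encoding versican, a large proteoglycan that binds hyaluronan, also separated the clones, at a low level. Vcan (ENSMUSG00000021614, chr13:89655312-89742509) was at 7.86, 7.73 and 6.89 CPM in the knockout, 0.742, 1.13 and 0.892 CPM in the control and 8.43, 6.95 and 6.00 CPM in the parental libraries. Knockout and parental libraries overlapped, and the control libraries were far below both. The 3 log2 differences, in the order knockout minus control, knockout minus parental and control minus parental, were 3.03 (SE 0.21, adjusted p 1.2e-05), 0.07 (SE 0.18, adjusted p 0.794) and -2.96 (SE 0.21, adjusted p 5.07e-05). Among the 26 genes, Vcan had the highest log2 value for knockout minus control, while knockout minus parental was not called. The tested genes of chromosome 13 had a median of 0.33 for knockout against control. The other 2 proteoglycans of the list were not tested. Bgn had 40 counts, 3 of them in the knockout libraries, and Dcn had none.

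Thbs1, encoding thrombospondin-1, a matricellular protein that limits angiogenesis and activates latent TGF-beta, was high in the knockout clone and uneven in the control clone. Thbs1 (ENSMUSG00000040152, chr2:118111876-118127133) was at 234, 226 and 229 CPM in the knockout, 17.3, 169 and 22.1 CPM in the control and 40.1, 27.2 and 18.8 CPM in the parental libraries. Control replicate 2 stood close to the knockout libraries, and the other control libraries were at the parental level. The means were 229.7 ± 3.62, 69.3 ± 86.0 and 28.7 ± 10.7 CPM (SD, n = 3). Relative to parental cells the log2 change was 3.00 (SE 0.77, adjusted p 0.0165), a call that was lost without parental replicate 2 (2.96, adjusted p 0.0607) or 3 (2.77, adjusted p 0.0700). The DESeq2 test gave no p-value for Thbs1 in any comparison. Against the control clone it was 1.74 (SE 0.73, adjusted p 0.0818), which was not called, but became a call on leaving out control replicate 2 (3.55, adjusted p 8.01e-06) and with no filter on low counts (1.74, adjusted p 0.0111). Control against parental was 1.26 (SE 0.74, adjusted p 0.254), and without control replicate 2 it turned to -0.55 (adjusted p 0.126). Its paralog Thbs2 had 5 counts.

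Sparc, encoding osteonectin, a collagen-binding matricellular protein, fell in the knockout clone and was highest in the parental cells. Sparc (ENSMUSG00000018593, chr11:55394500-55423183) was at 10.4, 8.68 and 9.87 CPM in the knockout, 22, 16.1 and 24.4 CPM in the control and 33.7, 34.2 and 39.3 CPM in the parental libraries. The groups did not overlap, in the order knockout, control, parental from low to high. Knockout minus control was -1.11 (SE 0.16, adjusted p 0.000507) on the log2 scale, knockout minus parental -1.89 (SE 0.16, adjusted p 5.56e-05) and control minus parental -0.77 (SE 0.15, adjusted p 0.00677). The same order of groups was seen for Col6a1 and Lamc1. Ecm1, extracellular matrix protein 1 (ENSMUSG00000028108, chr3:95734147-95739569), was at 31.3, 31.6 and 28.7 CPM in the knockout, 90.5, 70.0 and 78.9 CPM in the control and 55.3, 53.5 and 65.4 CPM in the parental libraries. Here too the groups did not overlap, but the control clone was the highest. Relative to the control clone its log2 change was -1.39 (SE 0.12, adjusted p 3.12e-05), and relative to the uncloned line -0.93 (SE 0.12, adjusted p 0.000422). Control against parental was 0.46 (SE 0.11, adjusted p 0.0191), a call lost without control replicate 1 or parental replicate 1 or 2 and with only those 2 groups in the fit (adjusted p 0.0611 to 0.1).

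Spp1, the most abundant matrix gene per length, was not called in any comparison in the fit of all libraries. Spp1 (ENSMUSG00000029304, chr5:104435118-104441050) was at 747, 528 and 839 CPM in the knockout, 875, 467 and 1883 CPM in the control and 1115, 1174 and 1115 CPM in the parental libraries. All knockout libraries were below all parental ones, while the control libraries spanned both. Knockout minus control was -0.61 (SE 0.40, adjusted p 0.246) on the log2 scale, and knockout minus parental was -0.69 (SE 0.40, adjusted p 0.22). Both depended on control libraries, which enter the shared estimate of the spread and, for the first, the difference itself. With only the knockout and parental groups in the fit, the second was called (-0.69, adjusted p 0.00159). Without control replicate 2 they were -0.96 (adjusted p 0.0134) and -0.69 (adjusted p 0.048), and without control replicate 3 they were 0.07 (adjusted p 0.838) and -0.69 (adjusted p 0.0339). Control against parental was -0.08 (SE 0.40, adjusted p 0.91), and it was -0.76 (adjusted p 0.0498) without control replicate 3. Postn, Tgfbi and Tnc, the other glycoproteins of the list, were not at a testable level.

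The fibulins, glycoproteins of elastic fibres and basement membranes, did not move together. Efemp1 (ENSMUSG00000020467, chr11:28853204-28926743) fell in the knockout clone. Its levels were 36.1, 34.9 and 35.4 CPM in the knockout, 148, 155 and 128 CPM in the control and 108, 107 and 146 CPM in the parental libraries. Every knockout library was far below every other, and the other groups overlapped. The knockout mean of 35.5 ± 0.574 CPM (SD, n = 3) was 0.247 of the control mean and 0.295 of the parental mean. In log2 units, the knockout libraries differed from control by -2.02 (SE 0.13, adjusted p 8.78e-06) and from parental by -1.76 (SE 0.13, adjusted p 3.18e-05).

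Fbln2 (ENSMUSG00000064080) was at 938, 883 and 923 CPM in the knockout, 705, 1027 and 536 CPM in the control and 937, 885 and 808 CPM in the parental libraries, with all groups overlapping. Fbln2 differed by 0.27 (SE 0.19, adjusted p 0.271) from control and by 0.06 (SE 0.19, adjusted p 0.837) from parental on the log2 scale, and without control replicate 2 the first was called (0.56, adjusted p 0.00248). Fbln1 (ENSMUSG00000006369) was at 14.7, 12.1 and 12.4 CPM in the knockout, 12.0, 10.3 and 14.4 CPM in the control and 23.9, 24.5 and 22.5 CPM in the parental libraries. Both clones were below the parental cells and overlapped each other. Log2 changes were -0.85 (SE 0.14, adjusted p 0.00154) for knockout against parental, -0.95 (SE 0.14, adjusted p 0.00175) for control against parental and 0.10 (SE 0.14, adjusted p 0.599) for knockout against control. Fbn1, encoding fibrillin-1, had 2 counts. Among the lysyl oxidases, which cross-link collagen and elastin, Loxl2 was at 83.5, 72.4 and 81.0 CPM in the knockout, 69.8, 76.9 and 77.7 CPM in the control and 66.3, 60.6 and 62.7 CPM in the parental libraries. Parental libraries were the lowest, and the clones overlapped. Loxl2 differed by 0.32 (SE 0.08, adjusted p 0.0166) from parental and by 0.08 (SE 0.08, adjusted p 0.468) from control on the log2 scale. The first call was lost without knockout replicate 1 or 3 or parental replicate 2 or 3 (adjusted p 0.0594 to 0.0726). Lox had no count and Loxl1 16.

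**Figure D5:**
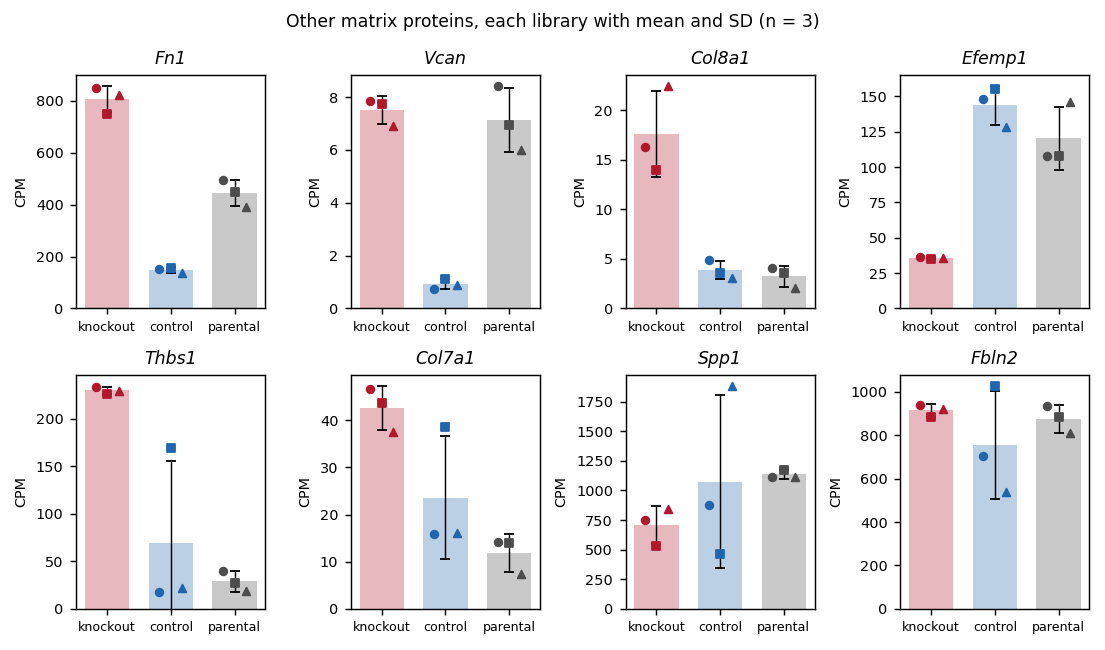
Level of 8 other matrix genes in CPM on linear axes that start at 0, with 1 point per library, bars at the mean and error bars of 1 SD (n = 3), the lower end of the Thbs1 control bar lying below the axis. Fn1 and Vcan are lowest in the control clone, Col8a1 is highest and Efemp1 lowest in the knockout clone, and 1 control library (replicate 2) lies near the knockout libraries for Thbs1 and Col7a1.

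Genes that process and assemble collagen, listed apart from the 47, were examined next to them. Of 27, 22 were tested. The knockout clone had 4 higher and 9 lower than the control clone, 13 called beside 42.9% of all tested genes, and 2 higher and 8 lower than the parental cells, 10 called beside 31.4%. P3h4 encodes a partner protein of collagen lysyl hydroxylation. Its levels were 6.59, 6.45 and 7.30 CPM in the knockout, 32.3, 21.5 and 21.9 CPM in the control and 23.3, 26.8 and 28.5 CPM in the parental libraries, with log2 fold changes of -1.90 (adjusted p 4.82e-05) and -1.95 (adjusted p 7.48e-05). P3h3, a prolyl 3-hydroxylase family member, and Loxl3, a lysyl oxidase, were also called lower in both. Their levels did not exceed 1.12 and 1.84 CPM in any library and were under the cutoff of 0.565 CPM in all knockout libraries. They passed the filter only through the other groups, where they were higher, so their calls are counted above but carry no weight. Bmp1, the proteinase that trims the ends of fibrillar procollagens, rose. Bmp1 was named after its values were seen, and was at 76.2, 74.7 and 76.1 CPM in the knockout, 27.1, 29.4 and 29.4 CPM in the control and 35.0, 35.2 and 27.2 CPM in the parental libraries. Its log2 fold changes were 1.40 (adjusted p 1.78e-05) and 1.22 (adjusted p 5.87e-05).

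Among 39 further matrix genes outside the list, 12 were tested. The knockout clone had 4 higher and 2 lower than the control clone, 6 called beside 42.9% of all tested genes, and 4 higher and 3 lower than the parental cells, 7 called beside 31.4%. Tnxb, encoding tenascin-X, was at 8.84, 9.63 and 8.99 CPM in the knockout, 73.9, 41.6 and 104 CPM in the control and 36.0, 41.3 and 54.5 CPM in the parental libraries. All knockout libraries were below all others, with log2 fold changes of -3.00 (adjusted p 9.04e-05) and -2.26 (adjusted p 0.000624). Ltbp1, which holds latent TGF-beta in the matrix, was at 228, 207 and 209 CPM in the knockout, 72.8, 67.4 and 81.9 CPM in the control and 145, 142 and 146 CPM in the parental libraries. As for Fn1, the parental cells lay between the clones, and the log2 fold changes were 1.54 (adjusted p 3.89e-06) and 0.58 (adjusted p 0.000953). Col11a1 is a fibrillar collagen that was not on the list. It passed the filter through the knockout libraries, where it was higher, so its call is counted above but carries no weight. Its levels were 1.56, 1.56 and 1.64 CPM in the knockout, 0.175, 0.178 and 0.157 CPM in the control and 0.578, 0.413 and 0.118 CPM in the parental libraries.

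Markers of the labelled cell type and of other cells were checked beside these results. All 8 markers of pancreatic ductal epithelium were tested. Krt8, Krt18, Krt19 and Cdh1 were abundant, while Epcam and Cldn4 had means of at most 0.610 and 1.48 CPM in any group. The summed ductal level was 4319 to 4446 CPM in the knockout, 7008 to 9379 CPM in the control and 6696 to 8165 CPM in the parental libraries. Against the control clone 5 were called lower and 2 higher (24.2% and 18.7% of all tested genes), and against the parental cells 4 lower and 2 higher (18.3% and 13.1%), with median log2 fold changes of -0.56 and -0.05. Krt19 was lower by the most (-3.12 and -2.73). The 2 counted as higher were Epcam and Cldn4, which were above the filter's cutoff of 0.565 CPM in knockout libraries alone, so that a call could only be higher. The medians also include these 2. The other 6 had levels above the cutoff in every library, and none of these was called higher in the knockout clone. The part of these differences in the results for the matrix genes was not tested. Of the markers of other cells, 1 of 6 for leukocytes, 0 of 5 for endothelium and 1 of 5 for hepatocytes were at a testable level. Leukocyte markers summed to 0.946 to 1.28 CPM in the knockout, 1.57 to 2.92 CPM in the control and 1.41 to 2.12 CPM in the parental libraries, with Adgre1 at 0 throughout. Endothelial markers reached at most 0.577 CPM in a library. Hepatocyte markers summed to 0.0977 to 0.175 CPM in the knockout, 0.178 to 0.525 CPM in the control and 1.12 to 3.00 CPM in the parental libraries, and the part of these markers in the results was not tested.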

How the data were processed

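RNA was measured in 9 libraries, 3 per group, made with the KAPA mRNA HyperPrep kit per the labels. The deposited values are estimated counts per gene, all whole numbers. The submitters' processing notes name RSEM 1.3.0, STAR 2.5.2, DESeq2 1.10.1 and build GRCm38, with no role or order. The strand setting and annotation release are not given in the sources used here, and RSEM divides reads that match several genes by an estimate, so overlapping genes and close paralogs are less certain. Symbols, positions and exon lengths came from GENCODE M21 on GRCm38, which held 54809 of the 54838 identifiers.

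Counts were tested with edgeR 4.0.16 (quasi-likelihood, filterByExpr with a minimum count of 10 and a minimum total of 15, TMM) in R 4.3.3, with all 9 libraries in 1 fit and the group as the only term. This left 13153 genes. P-values were Benjamini-Hochberg adjusted over them. An adjusted p given for an alternative is from edgeR, unless DESeq2 is named, and was adjusted over the genes tested in that alternative. Standard errors are the log2 fold change's size over the root of F. Levels between genes are CPM per kilobase of merged exons. The 47 genes and all lists were chosen with earlier results of these data known. Values in every library are given for called genes with a log2 fold change of at least 1 in size, for the most abundant gene of each role and for chains that assemble together, and likewise for most other tested genes. On simulated counts of 12934, 12930 and 12941 genes, the test recovered 70.5%, 68.5% and 68.5% of 200 changed genes of mixed fold sizes for knockout against control, knockout against parental and control against parental. Among the 4-fold changes it recovered 98.4%, 95.1% and 97.1%, 0 calls had the opposite sign, and 7, 6 and 10 unchanged genes were called. Within groups, libraries correlated at 0.964 to 0.991 on log2 CPM, and no pair agreed within sampling noise. Alternatives were other size factors (DESeq2 1.42.0, total counts), other filters, the DESeq2 test, a replicate block, only the groups compared, and each library left out.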

Additional observations from a re-analysis of the deposited data

How the results depend on the processing

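The labels number the replicates 1 to 3 in each group. Deviations of same-numbered libraries from their group means correlated at -0.223 to 0.344, beside -0.459 to 0.470 for other numbers. No pairing by number was seen, but 3 libraries a group cannot settle whether the numbers pair them. With the replicate block, 5528, 3941 and 2492 genes were called for knockout against control, knockout against parental and control against parental, and 20, 17 and 12 matrix genes. Col7a1 (0.96, adjusted p 0.022) and Thbs1 (2.27, adjusted p 0.0349) were then called for knockout against control and Col6a1 (-0.75, adjusted p 0.0385) and Col7a1 (0.94) for control against parental. Apart were then 14, 6 and 6 matrix genes and 2739, 1581 and 682 of all genes for knockout, control and parental. Fitting only the groups compared gave 6840 genes for knockout against parental and 1525 for control against parental, 6 matrix genes for the latter, and 928 genes and 3 matrix genes apart in the control clone. With the added fold threshold, 1843, 1392 and 851 genes and 10, 9 and 2 matrix genes remained in the 3 comparisons, and 969, 432 and 273 genes and 6, 2 and 0 matrix genes were apart in the knockout, control and parental groups. Matrix genes apart in the parental cells numbered 7 without a filter and 7 with the DESeq2 test, beside 744 and 952 of all genes. Leaving out 1 library at a time gave 4301 to 7204, 2515 to 5693 and 1472 to 4102 genes, and 16 to 22, 14 to 21 and 6 to 17 matrix genes. Genes apart then ranged from 1825 to 4154 (knockout), 944 to 2784 (control) and 383 to 1416 (parental), and matrix genes apart from 12 to 17, 3 to 10 and 2 to 8. Without control replicate 2, 17 matrix genes differed between control and parental and 10 were apart in the control clone. Without parental replicate 2 the former was 6, and without parental replicate 1 or 2 the latter was 3. In the parental cells, 8 were apart without control replicate 3 and 2 without parental replicate 2. For all genes, knockout against parental fell to 2626 without knockout replicate 1 and 2515 without parental replicate 3. The cause was not tested.

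Over the single values of the 26 genes, 669 stayed called, 50 calls were lost and 36 gained, and 15 values changed sign, none of them a called one. Leaving out 1 library at a time, these ranged as follows. For control against parental the lowest and highest log2 values were -0.0011 and 0.19 for Lamb2, -0.11 and 0.14 for Lamb3, -0.021 and 0.18 for Hspg2, -0.55 and 1.73 for Thbs1 and -0.76 and 0.28 for Spp1. For knockout against control they were -0.13 and 0.078 for Hspg2, -0.96 and 0.070 for Spp1 and -0.0052 and 0.23 for Fbln1. For knockout against parental they were -0.0050 and 0.11 for Hspg2 and -0.040 and 0.21 for Vcan. With a filter of 5 CPM, knockout against control was -0.010 for Hspg2. Of the 21 genes below the filter, 15 were tested without it. Then Lama3, Bgn and Col6a3 were called for knockout against control (adjusted p 0.041 to 0.0455), Col16a1 for knockout against parental and Lama3 and Col16a1 for control against parental, each from at most 74 counts in 9 libraries. Some of the 21 also passed the filter when 1 library was left out. Col6a3 was then called for knockout against control in 7 of 9 fits, Col16a1 for knockout against parental in 5 and for control against parental in 6, Col6a3 for control against parental without control replicate 2, and Col1a1 for knockout against control without control replicate 3 (1.85, adjusted p 0.0489). A difference in the 6 genes with no count was not detectable at this depth.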
